A study of Arabidopsis thaliana with 30 samples.

Results

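The genes described here encode the repressor machinery that holds back light signalling in Arabidopsis thaliana. They are COP1 (AT2G32950), the SPA genes SPA1 (AT2G46340), SPA2 (AT4G11110), SPA3 (AT3G15354) and SPA4 (AT1G53090), DET1 (AT4G10180), COP10 (AT3G13550), DDB1A (AT4G05420), RUP1 (AT5G52250) and RUP2 (AT5G23730). These 10 genes, of 33602 in each table of raw counts, were chosen by name for their place in the pathway; the rule uses no measured value, but earlier results of these data were known when it was made. RNA-seq was done on Col-0 wild-type seedlings and on bdr1,2,3 seedlings, a triple mutant with T-DNA insertions in the BORDER genes BDR1, BDR2 and BDR3 (alleles bdr1-1, bdr2-1 and bdr3-1). The mutant is 1 combination of insertion alleles, so an effect of the genotype cannot be assigned to a single BDR gene. In the photomorphogenesis experiment, 5-day-old seedlings raised in darkness at 21 °C stayed in darkness, or received white light for 2 h or for 4 h. In the heat shock experiment, 12-day-old seedlings raised at 12 °C in long days (16 h light and 8 h dark) stayed at 12 °C, or were moved to 27 °C for 4 h. Each of the 10 groups (2 genotypes in 5 conditions) held 3 libraries, described as separate plates of whole seedlings, so the p-values measure the spread between plates.

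In darkness, COP1, a RING-type E3 ubiquitin ligase, works with the SPA proteins to mark light-signalling transcription factors such as HY5 for degradation. COP10, DET1 and DDB1A form the CDD complex, which supports the same repression and joins CUL4-based ubiquitin ligases. Photoreceptors inactivate COP1/SPA in light, and RUP1 and RUP2, whose genes are induced through HY5, return the UV-B receptor UVR8 to its inactive dimer.

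The libraries of the photomorphogenesis experiment held 7517174 to 22888978 counts and those of the heat shock experiment 6823975 to 22458726. Levels are given as CPM, a gene's count scaled by its library size within each experiment, so that levels of the 2 experiments were normalised separately. BDR1 fell from 51.7 to 112 CPM over the wild-type libraries to 1.66 to 3.65 CPM over the mutant libraries. BDR2 was also lower in the mutant in all 5 conditions, and BDR3 in all but the 12 °C groups, where it did not pass the test (log2 fold change -0.06, adjusted p = 0.857). Markers of flowers, which seedlings should lack, were at most 0.222 CPM in sum in any library. Green tissue markers (RBCS1A and CAB3) summed to 843 to 1035 CPM in the dark wild type and 6191 to 6465 CPM after 4 h of light. In whole seedlings, a smaller share of cells of a type and less transcript per cell cannot be told apart. The heat libraries numbered 1 of both genotypes lay apart from the other 2 of their groups on the first principal component (34.2 against 24.3 and 22.8 in the wild type, 39.8 against 31.6 and 31.6 in the mutant). The heat results are therefore also given without these 2 libraries.

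All 10 genes were expressed, and the order of their levels changed with light. In the dark wild type, DDB1A had the highest level per length of exon (38.0 ± 0.846 CPM per kb, SD, n = 3). COP10 (20.5 CPM per kb), SPA2 (19.6), DET1 (15.3) and COP1 (15.1) followed it, and RUP2 was lowest at 1.42 ± 0.548 CPM per kb. The libraries of COP10 and SPA2 overlapped on this scale, as did those of DET1 and COP1. After 2 h of light, SPA1 was highest at 116 ± 2.31 CPM per kb, followed by RUP2 at 65.4, RUP1 at 58.6 and SPA3 at 53.5 CPM per kb. COP10 was then the lowest of the 10, at 13.9 ± 1.59 CPM per kb. In the 12-day-old wild type at 12 °C, DET1 (31.6 CPM per kb) and SPA1 (28.3) were at the top with overlapping libraries, and RUP2 was again lowest at 3.23 CPM per kb.

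**Figure D1:**
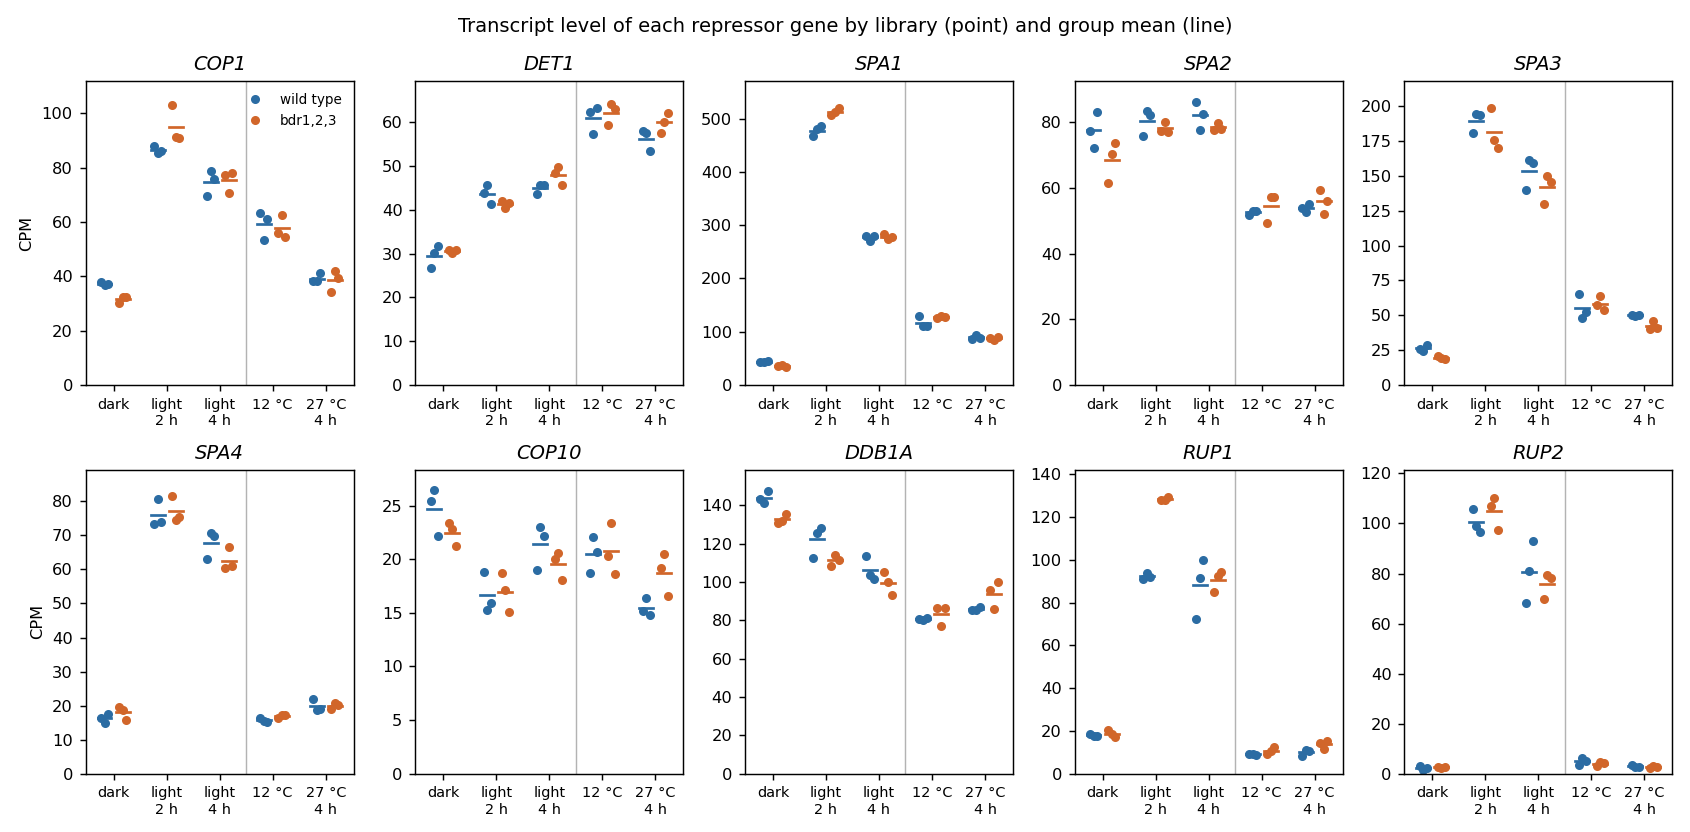
CPM of each of the 10 genes (vertical axes, linear and starting at 0) in every library of the wild type (blue) and bdr1,2,3 (orange), with group means as lines, and the photomorphogenesis conditions to the left of the grey line and the heat shock conditions to the right. SPA1, SPA3, SPA4, RUP1 and RUP2 were far above their dark levels in all light libraries, whereas SPA2 stayed between 61.5 and 86.4 CPM in the photomorphogenesis experiment.

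The promoters of 4 genes are shown, and no result below rests on their letters. COP1 and SPA1 were called for a different response to 2 h of light between the genotypes. For COP1 this call was kept in 1 of 12 fits that left out a library. RUP1 and RUP2 lie downstream of HY5. Each run is the 250 bases before the annotated start of the gene, 5′ to 3′ on the gene's own strand, from the RefSeq TAIR10.1 assembly. The positions are chr2:13977631-13977880, plus strand for COP1, chr2:19027529-19027778, minus strand for SPA1, chr5:21216522-21216771, plus strand for RUP1 and chr5:8004847-8005096, plus strand for RUP2. Capitals mark the motifs searched on both strands: the ACGT core bound by HY5-type bZIP factors, and CACGCGC, the site of the transcription factors FHY3 and FAR1, which activate COP1.
COP1: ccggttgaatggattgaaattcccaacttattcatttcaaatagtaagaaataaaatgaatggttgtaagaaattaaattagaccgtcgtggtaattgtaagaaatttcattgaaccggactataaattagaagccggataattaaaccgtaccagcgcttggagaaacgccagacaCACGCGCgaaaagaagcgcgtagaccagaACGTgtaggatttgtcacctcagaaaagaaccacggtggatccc
SPA1: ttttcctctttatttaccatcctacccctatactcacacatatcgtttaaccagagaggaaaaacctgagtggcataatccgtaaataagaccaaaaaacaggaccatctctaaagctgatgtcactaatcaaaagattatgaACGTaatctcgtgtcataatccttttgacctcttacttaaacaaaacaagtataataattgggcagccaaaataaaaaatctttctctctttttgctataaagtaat
RUP1: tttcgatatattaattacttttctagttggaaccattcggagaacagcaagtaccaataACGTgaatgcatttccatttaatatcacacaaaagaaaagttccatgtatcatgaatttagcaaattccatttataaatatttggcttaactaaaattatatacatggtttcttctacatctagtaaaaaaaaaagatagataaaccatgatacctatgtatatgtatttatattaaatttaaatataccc
RUP2: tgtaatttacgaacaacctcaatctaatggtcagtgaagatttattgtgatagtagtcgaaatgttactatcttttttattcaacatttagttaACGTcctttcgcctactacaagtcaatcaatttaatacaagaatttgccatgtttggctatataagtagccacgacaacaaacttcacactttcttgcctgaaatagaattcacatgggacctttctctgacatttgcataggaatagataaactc

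The COP1 promoter held CACGCGC beginning 73 bases before the start and ACGT beginning 44 bases before it. CACGCGC was present in 1.06% of 27437 promoters of the same length, and among the 10 genes it was found only in COP1. ACGT was present in 44.1% of promoters and began 107 bases before the start in SPA1, 191 in RUP1 and 156 in RUP2. The G-box CACGTG, which contains ACGT, was present in 6.49% of promoters and among the 10 genes only in COP10, where it began 198 bases before the start. DET1 and SPA4 held none of the 3 motifs in this window. A match is a description of the letters and not evidence of binding.

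The first comparison addressed how the repressor genes respond when dark-grown seedlings are exposed to light. After 2 h of light, 7 of the 10 genes were higher in the wild type, against 33.9% of 19521 genes tested, and 2 were lower, against 32.9%. Calls come from the quasi-likelihood test of edgeR, with p adjusted over all genes tested by the Benjamini-Hochberg method and a threshold of 0.05, and all 10 genes passed the filter on low counts. In the mutant, 8 were higher (33.9% of all genes) and 2 were lower (33.8%). The 10 genes had a median log2 fold change of 1.72 (wild type) and 1.84 (mutant), against 0.0125 and -0.00506 over all genes tested.

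COP1 itself, the ligase, was at 38.0, 36.7 and 37.2 CPM in the dark wild-type libraries and at 88.1, 85.4 and 86.0 CPM after 2 h of light. In the mutant, COP1 rose from 30.2, 32.3 and 32.3 CPM to 103, 91.5 and 91.1 CPM. The groups did not overlap in either genotype, and the log2 fold change was 1.21 ± 0.07 (SE) in the wild type (adjusted p = 1.07e-13) and 1.59 ± 0.07 in the mutant (adjusted p = 3.16e-16).

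The SPA genes, whose products are the partners of COP1, split into 3 that rose strongly and 1 that barely moved. SPA1, the family member known for repressing phytochrome A signalling, was at 43.3, 43.0 and 45.6 CPM in the dark wild type and at 467, 480 and 485 CPM after 2 h of light, a 10.8-fold rise (log2 fold change 3.44 ± 0.06, adjusted p = 3.21e-22). SPA3 rose strongly as well (log2 2.85 ± 0.09, adjusted p = 7.5e-19) and SPA4 rose 4.66-fold (log2 2.22 ± 0.09, adjusted p = 6.6e-17). For these 3 genes all light libraries were above all dark libraries. Dark and 2 h libraries did not overlap for 70.9% of all genes tested.
SPA2 was at 77.4, 72.3 and 83.3 CPM in the dark wild type and at 75.9, 83.4 and 82.2 CPM after 2 h of light. These groups overlapped and the difference did not pass the test (log2 0.05, 95% interval -0.10 to 0.20, adjusted p = 0.547). In the mutant, SPA2 rose by a log2 fold change of 0.20 ± 0.07 (adjusted p = 0.0167), from 61.5, 70.3 and 73.9 CPM to 77.4, 80.3 and 77.2 CPM. That call was lost without dark mutant replicate 1 (log2 0.12, adjusted p = 0.15) or 2 h mutant replicate 2 (log2 0.18, adjusted p = 0.0604), and the difference between genotypes did not pass the test (log2 0.15, adjusted p = 0.568).

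The makeup of the SPA family therefore changed within 2 h. Per length of exon, SPA2 accounted for 45.8% ± 0.314 (SD, n = 3) of the summed SPA level in the dark wild type and for 9.52% ± 0.206 after 2 h of light. SPA1 went from 24.9% ± 0.897 to 54.2% ± 0.695, while the summed level went from 42.8 to 213 CPM per kb. In the mutant SPA2 was at 46.6% ± 3.57 in darkness and 9.01% ± 0.301 after 2 h. In the older seedlings at 12 °C, SPA1 again had the largest share of the 4 (45.5% ± 0.684 in the wild type), and SPA2 held 21.5% ± 2.00. SPA3 and SPA4 each overlap a gene on the opposite strand, and the use of strand in counting is not given in the sources used here, so part of their counts may belong to those genes.

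**Figure D2:**
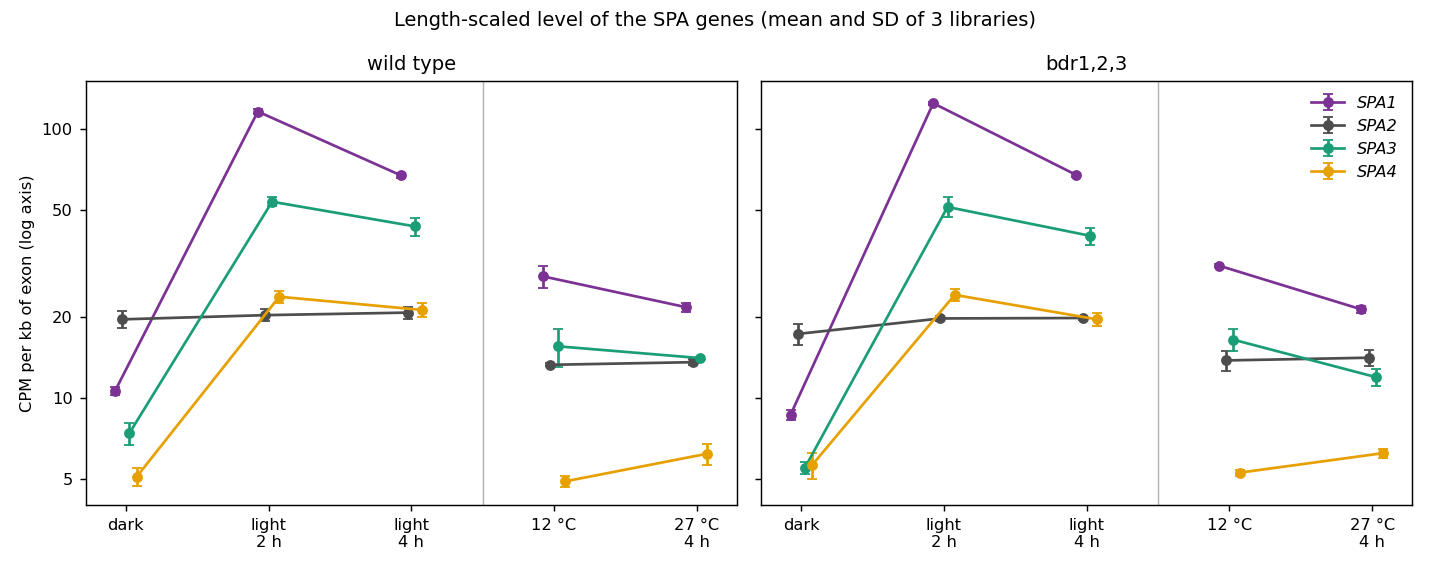
Level of the 4 SPA genes per kb of exon (log axis) in the 5 conditions of the wild type (left) and bdr1,2,3 (right), as mean and SD of 3 libraries; the 2 experiments, separated by the grey line, were normalised separately. SPA2 was highest in darkness (19.6 CPM per kb in the wild type) and SPA1 in the light (116 CPM per kb after 2 h).

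Both RUP genes, the brakes on UVR8, rose with light. RUP2 had the largest fold change of the 10: it was at 3.03, 1.35 and 2.17 CPM in the dark wild type and at 106, 99.0 and 96.5 CPM after 2 h, a 47.8-fold rise (log2 5.58 ± 0.15, adjusted p = 8.45e-19). The dark level rested on 15 to 26 counts per wild-type library. RUP1 was already present in darkness, at 18.6, 17.8 and 17.7 CPM, and reached 91.3, 94.0 and 92.2 CPM after 2 h (log2 2.36 ± 0.10, adjusted p = 1.29e-16). Dark and light libraries of both genes were far apart in both genotypes.

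The genes of the CDD complex responded in opposite directions and by less. DET1, a chromatin-associated repressor, rose from 26.7, 30.1 and 31.7 CPM to 43.7, 45.7 and 41.4 CPM in the wild type (log2 0.56 ± 0.07, adjusted p = 1.98e-07). COP10, related to ubiquitin-conjugating enzymes, fell from 25.4, 26.4 and 22.2 CPM to 18.9, 15.3 and 15.9 CPM (log2 -0.56 ± 0.11, adjusted p = 5.05e-05). DDB1A, the adaptor to CUL4, fell from 144, 141 and 147 CPM to 113, 126 and 128 CPM (log2 -0.24 ± 0.06, adjusted p = 0.00231). The same 3 directions were called in the mutant, at 0.43, -0.40 and -0.25 on the log2 scale.

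After 4 h, 7 genes were still above the dark level in the wild type (35.2% of all genes were higher) and 1, DDB1A, was below it (34.9% lower). In the mutant 8 were higher (35.9%) and 1 was lower (34.1%). COP10 was not called against darkness in the wild type (log2 -0.20, 95% interval -0.42 to 0.01, adjusted p = 0.0809) or in the mutant (log2 -0.19, adjusted p = 0.0899). With total counts in place of TMM it was called lower in both (adjusted p = 0.0199 and 0.0382).

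Between 2 and 4 h most of the induced genes declined. In the wild type 5 of the 10 genes were lower at 4 h than at 2 h (22.6% of all genes) and 1 was higher (23.4%). SPA1 declined most, from 467, 480 and 485 CPM to 280, 271 and 280 CPM (log2 -0.78 ± 0.06, adjusted p = 9.18e-11), with no overlap. SPA3 (log2 -0.30), RUP2 (-0.32), COP1 (-0.21) and DDB1A (-0.20) were also lower, and COP10 was higher (log2 0.36 ± 0.10, adjusted p = 0.00712). Leaving out single libraries ended the calls of COP1 (without 4 h replicate 1, adjusted p = 0.0717), RUP2 (without 2 h replicate 1 or 4 h replicate 1, 0.0508 and 0.0654) and DDB1A (without 2 h replicate 2 or 3 or 4 h replicate 2 or 3, 0.0521 to 0.0936). SPA4 fell short of the threshold (log2 -0.16, adjusted p = 0.0751), as did RUP1 (log2 -0.07, 95% interval -0.24 to 0.10, adjusted p = 0.506), whose 4 h libraries were at 72.5, 91.7 and 100 CPM.
In the mutant, 6 genes declined from 2 to 4 h (19.3% of all genes) and 1 rose (22.5%). The 6 were SPA1 (log2 -0.88), RUP1 (-0.51), RUP2 (-0.47), SPA3 (-0.36), COP1 (-0.34) and SPA4 (-0.30), and DET1 rose by 0.22, a call lost without 4 h replicate 2 (adjusted p = 0.0588). RUP1 went from 128, 128 and 129 CPM to 85.0, 92.3 and 94.3 CPM, without overlap. Whether its change from 2 to 4 h differed between the genotypes was not tested. The phloem marker SUC2 was at 79.5 to 86.9 CPM in the dark wild type, 122 to 125 CPM at 2 h and 80.4 to 92.4 CPM at 4 h, and was called higher and then lower. The root markers summed to 159 to 184, 98.7 to 102 and 133 to 147 CPM in the same groups, with 2 of 2 tested called lower at 2 h. The part of these markers in the light responses was not tested.

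**Figure D3:**
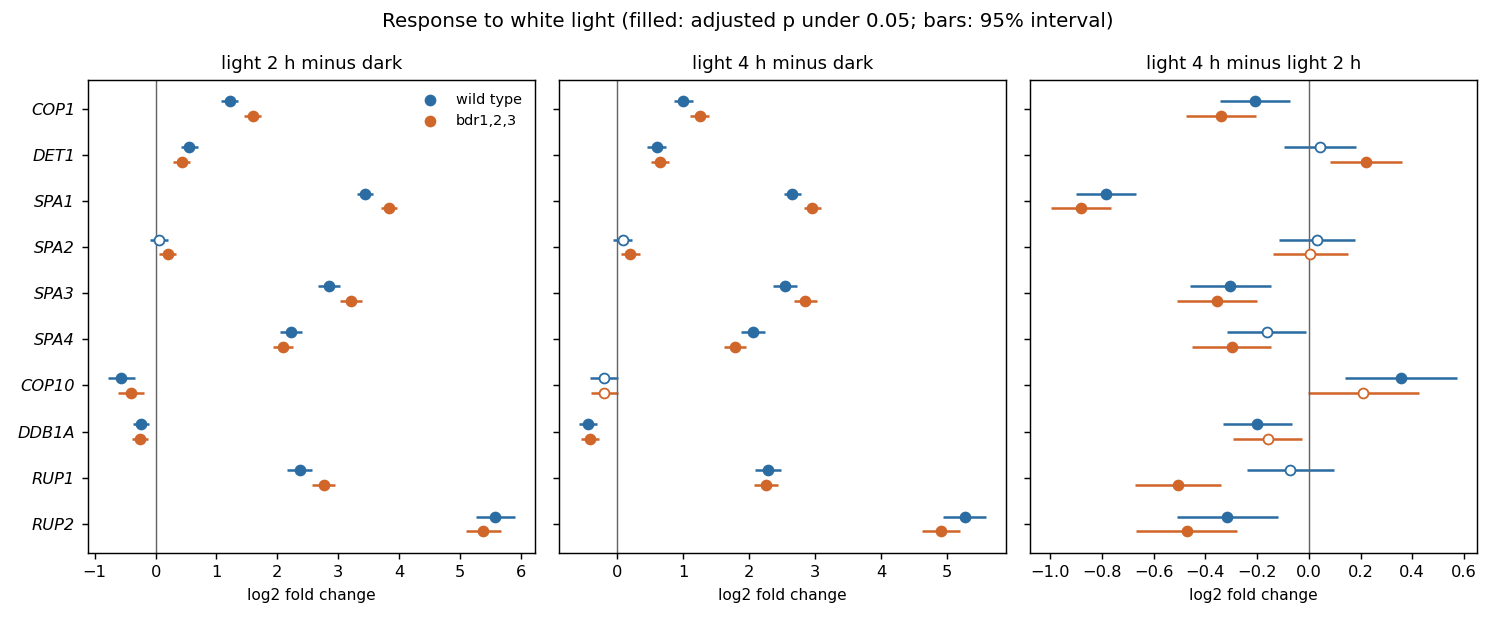
Log2 fold changes of the 10 genes for light 2 h against dark, light 4 h against dark and light 4 h against light 2 h, in the wild type (blue) and bdr1,2,3 (orange), with 95% intervals; filled points passed an adjusted p of 0.05. RUP2 and SPA1 had the largest changes at 2 h (5.58 and 3.44 in the wild type), and SPA1 had the largest decline from 2 to 4 h in both genotypes.

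The genotypes were then compared within each condition. In darkness, 3 of the 10 genes were lower in the mutant (11.3% of all genes) and 0 were higher (8.04%). COP1 was at 30.2, 32.3 and 32.3 CPM in the mutant against 38.0, 36.7 and 37.2 CPM in the wild type (log2 -0.24 ± 0.07, adjusted p = 0.0207). SPA1 was at 35.8, 37.4 and 34.3 CPM against 43.3, 43.0 and 45.6 CPM (log2 -0.30 ± 0.06, adjusted p = 0.00202). SPA3 was at 20.5, 19.4 and 18.7 CPM against 25.8, 24.1 and 29.0 CPM (log2 -0.43 ± 0.09, adjusted p = 0.00231). The genotypes did not overlap for these 3 genes, with the mutant lower. Counted in either direction, 4 of the 10 genes and 34.3% of all genes tested had no overlap.
The calls of SPA1 and SPA3 held without any single library, whereas COP1 lost its call without wild-type replicate 1 or 3 or mutant replicate 1 (adjusted p = 0.0681, 0.0546 and 0.0883). SPA2 was also at lower values in the mutant (log2 -0.18, 95% interval -0.33 to -0.04), but overlapped with the wild type and did not pass the test (adjusted p = 0.0721). RUP2 gave no call in darkness (log2 0.26, 95% interval -0.26 to 0.78, adjusted p = 0.513). The 4 root markers (1 of the 2 tested was called higher) summed to 230 to 256 CPM in the dark mutant and 159 to 184 CPM in the dark wild type, the 2 green tissue markers (1 called higher) to 948 to 1321 and 843 to 1035 CPM, and their part in these differences was not tested.

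After 2 h of light edgeR did not call COP1, SPA1 or SPA3 between genotypes, whereas DESeq2 called SPA1 higher in the mutant (log2 0.13, adjusted p = 0.00786). The mutant minus wild-type values were 0.14 for COP1 (95% interval 0.00 to 0.27, adjusted p = 0.146), 0.10 for SPA1 (-0.01 to 0.22, adjusted p = 0.222) and -0.06 for SPA3 (-0.22 to 0.09, adjusted p = 0.616). The difference between the genotypes in the response to 2 h of light, tested as an interaction, was called for 2 of the 10 genes in the direction of a larger rise in the mutant (1.1% of all genes) and for 0 in the other direction (0.743%). SPA1 rose by a further log2 0.40 ± 0.09 in the mutant (adjusted p = 0.0122), 14.3-fold against 10.8-fold. COP1 rose by a further log2 0.38 ± 0.10 (adjusted p = 0.0418), 3.02-fold against 2.32-fold.
The SPA1 interaction was called in all 12 fits that left out 1 library. The COP1 interaction was called in 1 of these 12, with values of 0.32 to 0.41 and adjusted p from 0.0468 to 0.107. Under the alternative settings it was called in 4 of 6. It was not called with replicate number as a block (adjusted p = 0.0648) or without the filter on low counts. SPA3 (log2 0.36, adjusted p = 0.142) and RUP1 (log2 0.40, adjusted p = 0.135) had interaction values of like size that did not pass the test. RUP1 passed when only the groups compared were fitted (log2 0.41, adjusted p = 0.0382), 1 of 6 alternatives. These interactions share their dark libraries with the comparison of genotypes in darkness, so the lower dark levels and the larger rise are not independent. Both green tissue markers had an interaction in the opposite direction (log2 -0.59 for RBCS1A and -1.74 for CAB3, adjusted p = 0.033 and 0.0199), and their part in these results was not tested.

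RUP1 was the 1 gene of the 10 that edgeR called between genotypes after 2 h of light (DESeq2 called SPA1 as well), where 8.67% of all genes were higher in the mutant and 10.6% were lower. It was at 128, 128 and 129 CPM in the mutant and at 91.3, 94.0 and 92.2 CPM in the wild type. The groups were far apart and RUP1 was 1.39-fold higher in the mutant (log2 0.47 ± 0.08, adjusted p = 0.000136), a call that held without any single library. RUP2, its homologue, differed by log2 0.06 (95% interval -0.13 to 0.26). At the same time point, green tissue markers summed to 2844 to 3048 CPM in the mutant and 3446 to 4087 CPM in the wild type, and root markers to 124 to 134 and 98.7 to 102 CPM, and their part in the RUP1 difference was not tested.

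After 4 h of light, 0 of the 10 genes were called higher in the mutant (7.86% of all genes) and 0 lower (8.67%), by edgeR and by DESeq2, and 0 had an unadjusted p under 0.05 in edgeR. The values ran from -0.12 for COP10 (95% interval -0.33 to 0.09) and SPA3 (-0.27 to 0.04) to 0.10 for DET1 (-0.04 to 0.24). SPA1 was at 283, 274 and 277 CPM in the mutant and at 280, 271 and 280 CPM in the wild type. The interaction at 4 h was called for 0 of the 10 genes in either direction (0.999% of all genes positive, 1.07% negative), with 3 positive and 1 negative at an unadjusted p under 0.05. For SPA1 it was log2 0.30 (95% interval 0.12 to 0.48, adjusted p = 0.0727), and DESeq2 called it (log2 0.28, adjusted p = 0.013). For COP1 it was log2 0.25 (adjusted p = 0.234).

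In the older seedlings at 12 °C, no gene of the 10 was called between genotypes (0 higher against 4.57% of all genes, and 0 lower against 6.36%), by edgeR or DESeq2, and 0 had an unadjusted p under 0.05 in edgeR. The largest values were log2 -0.31 for RUP2 (95% interval -0.78 to 0.15) and 0.20 for RUP1 (-0.10 to 0.50). After 4 h at 27 °C, 1 gene was higher in the mutant (8.53% of all genes) and 0 were lower (10.9%). This was again RUP1, at 14.5, 11.6 and 15.2 CPM in the mutant and 8.37, 11.1 and 10.4 CPM in the wild type (log2 0.47 ± 0.14, adjusted p = 0.0204). The lowest mutant library (11.6 CPM) was just above the highest wild-type library (11.1 CPM), and 35.2% of all genes tested had no overlap. The call was lost without both heat libraries numbered 1 (log2 0.33, adjusted p = 0.163) and without mutant replicate 1, mutant replicate 3 or wild-type replicate 1 (adjusted p = 0.0713, 0.102 and 0.0706).
COP10 (log2 0.27, 95% interval 0.04 to 0.50, adjusted p = 0.0894) and SPA3 (log2 -0.24, 95% interval -0.45 to -0.03, adjusted p = 0.11) did not pass the test at 27 °C. Each passed under 1 of 7 alternatives (adjusted p = 0.0426 for COP10 and 0.0299 for SPA3). In these groups the 3 seed storage markers summed to 14.9 to 20.5 CPM in the mutant and 1.73 to 5.31 CPM in the wild type, and 2 of the 3 were called higher. Their part in the RUP1 value was not tested.

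**Figure D4:**
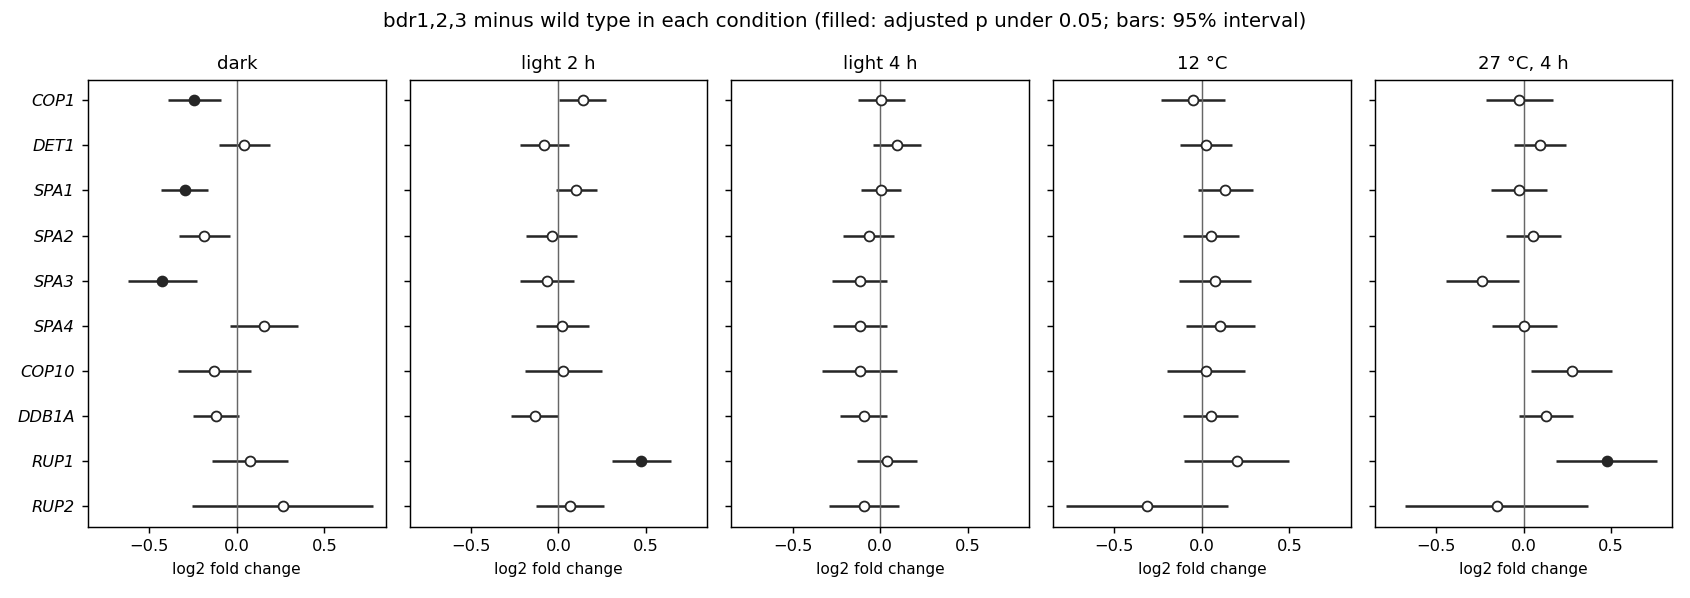
Log2 fold changes of bdr1,2,3 against the wild type for the 10 genes in each of the 5 conditions (3 libraries per group), with 95% intervals; filled points passed an adjusted p of 0.05. COP1, SPA1 and SPA3 were lower in darkness (-0.24, -0.30 and -0.43), and RUP1 was higher after 2 h of light and after 4 h at 27 °C (0.47 in each).

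The shift from 12 to 27 °C changed some of these genes in each direction, in numbers near the share of all genes in the mutant. In the wild type 4 of the 10 were lower (28.5% of 19473 genes tested) and 1 was higher (29.3%), and in the mutant 3 were lower (31.2%) and 2 were higher (29.4%). The 10 genes had a median log2 fold change of -0.14 (wild type) and -0.10 (mutant), against 0.00185 and -0.0245 over all genes tested.

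COP1 fell in both genotypes, from 63.5, 53.2 and 61.1 CPM to 38.2, 38.2 and 41.2 CPM in the wild type (log2 -0.60 ± 0.09, adjusted p = 1.81e-05). In the mutant COP1 went from 55.9, 62.6 and 54.4 CPM to 34.3, 42.0 and 39.6 CPM (log2 -0.58 ± 0.09, adjusted p = 2.52e-05). SPA1 fell from 130, 110 and 110 CPM to 86.8, 93.3 and 89.1 CPM in the wild type (log2 -0.38 ± 0.08, adjusted p = 0.000343) and by log2 -0.54 ± 0.08 in the mutant (adjusted p = 8.61e-06). SPA4 moved the other way, from 16.5, 15.4 and 15.2 CPM to 21.9, 18.6 and 19.1 CPM in the wild type (log2 0.34 ± 0.09, adjusted p = 0.00436) and by log2 0.24 ± 0.09 in the mutant (adjusted p = 0.0285). Heat and cold libraries of these 3 genes did not overlap. This was so for 5 of the 10 genes in each genotype, and for 63.7% (wild type) and 65.1% (mutant) of all genes tested. The SPA4 call in the mutant was lost without cold replicate 1 or heat replicate 2 or 3 (adjusted p = 0.0905, 0.0802 and 0.0676). Under the alternative settings it was kept in 6 of 7 (highest adjusted p = 0.0981). All 6 calls held without both heat libraries numbered 1. The phloem marker SUC2 also fell with heat, by log2 -1.96 (wild type) and -2.01 (mutant), and 2 of the 3 root markers tested were called lower in each genotype (summed level of the 4 root markers 6.29 to 9.85 CPM at 12 °C and 3.6 to 5.38 CPM at 27 °C in the wild type). Their part in the heat results was not tested.

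COP10 (log2 -0.40 ± 0.11, adjusted p = 0.00484) and RUP2 (log2 -0.70 ± 0.23, adjusted p = 0.0152) were called lower in the wild type. In the mutant they were at log2 -0.15 (adjusted p = 0.236) and -0.54 (adjusted p = 0.0588). RUP2 passed in the mutant under 2 of 7 alternatives (lowest adjusted p = 0.0377) and in 1 of 6 fits without 1 library. SPA3 (log2 -0.46 ± 0.10, adjusted p = 0.000615) and RUP1 (log2 0.39 ± 0.13, adjusted p = 0.0185) were called in the mutant, and in the wild type they were at log2 -0.15 (adjusted p = 0.192) and 0.12 (adjusted p = 0.512). None of the 10 genes passed the test of the difference between genotypes in the heat response by edgeR or DESeq2 (0 against 0.488% of all genes in the positive and 0 against 0.529% in the negative direction), and 1 had an unadjusted p under 0.05 in edgeR. The interaction values were -0.31 for SPA3, 0.28 for RUP1, 0.25 for COP10 and 0.16 for RUP2, with adjusted p from 0.35 to 0.891. RUP2 rested on 31 to 88 counts per library in this experiment, and in the wild type its call was lost without cold replicate 2 or 3 or heat replicate 3 (adjusted p = 0.0615, 0.0652 and 0.0553). The RUP1 call in the mutant was lost without cold replicate 1 or heat replicate 1 or 3 (adjusted p = 0.111, 0.0624 and 0.0905). DET1, SPA2 and DDB1A were not called by edgeR in either genotype. DDB1A passed in the mutant under 3 of 7 alternatives (lowest adjusted p = 0.0325) and in 2 of 6 fits without 1 library, and DET1 in the wild type under 1 of 7 (lowest adjusted p = 0.0455).

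**Figure D5:**
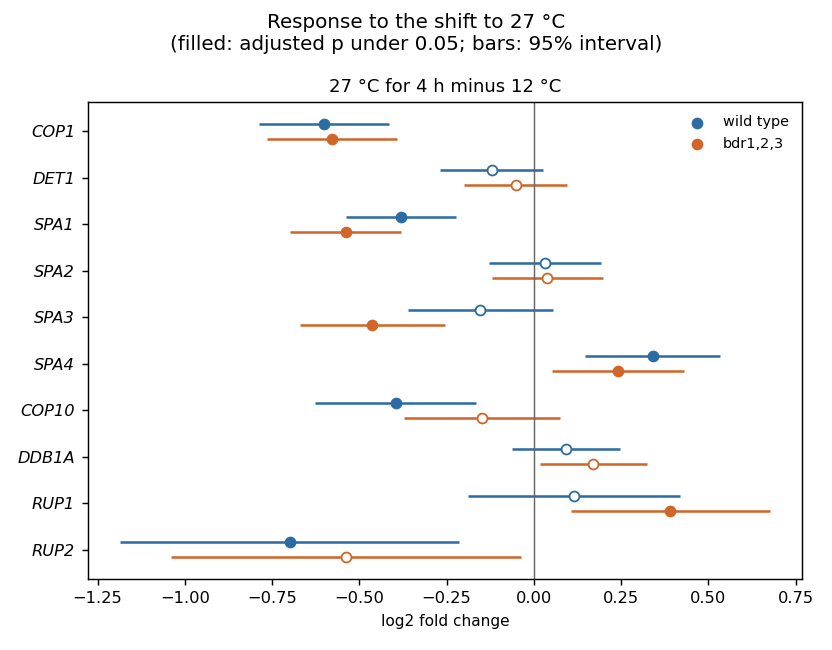
Log2 fold changes of the 10 genes between 4 h at 27 °C and 12 °C in the wild type (blue) and bdr1,2,3 (orange), with 95% intervals; filled points passed an adjusted p of 0.05. COP1 and SPA1 fell and SPA4 rose in both genotypes.

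Other genes of the pathway are given as counts from lists. Of the COP1/SPA substrates tested in the photomorphogenesis experiment, 7 of 10 rose and 2 fell with 2 h of light in the wild type, against 33.9% and 32.9% of all genes. They included HYH (6.35 to 81.3 CPM), a relative of HY5, BBX24 (126 to 862 CPM) and BBX20 (45.0 to 3.69 CPM), B-box proteins, and the B-box gene BBX25 (0.344 to 62.3 CPM). In darkness 3 of the 10 substrates were lower and 1 was higher in the mutant, against 11.3% and 8.04% of all genes. HY5, the bZIP factor at the centre of the light response, was at 47.0 CPM in the dark mutant and 64.7 CPM in the dark wild type (log2 -0.46, adjusted p = 0.00192), and HYH at 3.15 and 6.35 CPM (log2 -0.99, adjusted p = 0.00184). Both also had an interaction at 2 h in the same direction as COP1 and SPA1, at log2 0.53 for HY5 (adjusted p = 0.0386) and 1.34 for HYH (adjusted p = 0.00327). Of the 10 substrates tested, 2 were called for a positive interaction (1.1% of all genes) and 0 for a negative one (0.743%).

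All 8 HY5 and UVR8 pathway targets were higher after 2 h of light in both genotypes, against 33.9% of all genes in each. Among them was CHS, encoding chalcone synthase, which went from 0.56 to 87.8 CPM in the wild type. MYB12, a regulator of flavonol synthesis in this list, had 0 counts in every dark library and 52 to 69 counts in the 2 h wild-type libraries. Of the COP9 signalosome genes, whose products remove NEDD8 from cullins, 4 of 10 were higher and 1 lower at 2 h in the wild type, against 33.9% and 32.9% of all genes, and 6 of 10 were higher and 0 lower at 27 °C, against 29.3% and 28.5%. Of 4 partners of CUL4 and DDB1 tested, 0 were higher and 2 were lower at 2 h in the wild type. Over all genes these shares were 33.9% and 32.9%. The 2 lower genes were CUL4 (log2 -0.39) and RBX1A (log2 -0.18). FHY3, an activator of COP1, fell by log2 -0.51 in the wild type (adjusted p = 5.75e-08) while its homologue FAR1 rose by 0.22. Among 8 photoreceptor genes, 2 were higher and 3 lower at 2 h in the wild type (33.9% and 32.9% of all genes), with PHYA, encoding phytochrome A, changing most (log2 -2.34).

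BDR proteins have been studied for their effect on closely spaced neighbouring genes, so the nearest annotated protein-coding gene on the 5′ side of each of the 10 was recorded from TAIR10.1. It lay on the same strand for 6 genes, at 296 bp for COP10, 800 bp for DET1, 832 bp for SPA4, 1319 bp for SPA2, 1929 bp for RUP1 and 2248 bp for RUP2. It lay on the opposite strand for COP1 (359 bp, AGO6), SPA3 (390 bp), DDB1A (478 bp, YAO) and SPA1 (830 bp). COP1, SPA1 and SPA3, lower in the dark mutant, were among these 4. The neighbour of RUP1, MSBP1, was at 203, 175 and 190 CPM in the mutant and 169, 140 and 154 CPM in the wild type after 2 h of light. MSBP1 was higher by log2 0.29 (adjusted p = 0.00777). At 27 °C, where RUP1 was again higher, MSBP1 was higher by log2 0.24 (adjusted p = 0.0168). MSBP1 also had positive values where RUP1 was not called: log2 0.21 at 12 °C (adjusted p = 0.061), 0.14 at 4 h (adjusted p = 0.229) and 0.13 in darkness (adjusted p = 0.257). Of the other neighbours tested, AT1G53080 beside SPA4 was higher in the dark mutant (1.99 against 0.494 CPM, adjusted p = 0.00282). In the mutant, YAO beside DDB1A was lower at 2 h (log2 -0.36, adjusted p = 0.0232) and AT4G11100 beside SPA2 at 27 °C (log2 -0.33, adjusted p = 0.0484). The neighbours of SPA1 (AT2G46360) and SPA3 (AT3G15359) were not tested, nor was AT1G53080 in the heat shock experiment.

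By the root-mean-square difference of centred log2 CPM over the 10 groups, the genes most like COP1 among 18635 others were AT1G77930 (0.0785), AT3G27110 (0.0830) and AT2G02410 (0.0947). For SPA1 they were COR413-PM1 (0.135), KAC1 (0.165) and NUDX19 (0.167). For RUP1 they were SRT2 (0.153), STO, which is BBX24 (0.167), and AT5G45950 (0.168), and for RUP2 they were GLDP1 (0.154), UGT78D2 (0.275) and YCF37 (0.278). Among the 10 genes themselves, the most alike were DET1 and SPA2 (0.177), and SPA1 was closer to SPA3 (0.224) than to SPA2 (1.17). These differences are descriptions over group means, in which the response to light is the largest component.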

How the data were processed

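RNA-seq libraries of whole Arabidopsis seedlings (TruSeq Stranded mRNA, NextSeq500) were analysed from the raw counts per gene that the authors deposited, 1 table per experiment (18 and 12 libraries). The submitters' processing notes name STAR 2.5.2b, SAMtools 1.3.1, featureCounts, R 3.3.2, DESeq2 1.14.1 and the TAIR10 build. The strand setting used in counting is not given in the sources used here. The 2 deposited normalised tables, which hold the same counts divided by 1 size factor per library, were not used.

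The 2 experiments were fitted separately with the quasi-likelihood test of edgeR 4.0.16 (R 4.3.3), after filterByExpr and TMM scaling, over all groups of an experiment and without a replicate block. P-values were adjusted by the Benjamini-Hochberg method over all genes tested, and called at 0.05. CPM used TMM-scaled library sizes. DESeq2 1.42.0 and other settings were run as alternatives. The script was tested on simulated data. Gene models, promoters and neighbours came from RefSeq TAIR10.1. Groups came from the sample labels. Replicates of a group differed by more than counting noise (chi-square per degree of freedom 1.97 to 14.7).

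Same-numbered libraries deviated together in 1 of 13 pairs of groups, the genotypes at 4 h of light (r = 0.187 to 0.63). In these groups, replicates 2 and 3 with unlike numbers also deviated together (r = 0.393 and 0.164). Unlike-numbered pairs that held a replicate 1 had negative r (-0.567 to -0.249). The labels give no shared origin for the replicate numbers. When only the genotypes at 4 h were fitted, 5473 of 18638 genes were called with replicate number as a block and 2960 without it. Of the 10 genes, 0 were called in either fit.

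All 10 genes are named. Other pathway genes come from lists, with values for at most 4 genes of a list, mainly those with the largest change. MSBP1 was described after its values were seen. The members and lists were chosen with earlier results of these data known.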

Additional observations from a re-analysis of the deposited data

Results flagged for a closer look

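The response to 2 h of light differed between bdr1,2,3 and the wild type for COP1 and SPA1, by a test of the difference itself. COP1 rose by a log2 value 0.38 larger in the mutant (95% interval 0.18 to 0.58, edgeR adjusted p = 0.0418). SPA1 rose by a log2 value 0.40 larger in the mutant (95% interval 0.22 to 0.58, edgeR adjusted p = 0.0122). The COP1 call was kept in 1 of 12 fits that left out a library and the SPA1 call in 12 of 12. Under the alternative settings the COP1 call was kept in 4 of 6 and the SPA1 call in 6 of 6.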

How the results depend on the processing

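The counts of the 10 genes called stayed within 1.5 times under most alternatives. For the genotypes at 2 h of light, DESeq2 called 2 genes in place of 1, adding SPA1 (log2 0.13, adjusted p = 0.00786). Over all genes it called 3226, in place of 3758 by edgeR. For the interaction at 4 h, DESeq2 and total counts without TMM each called 1 gene in place of 0, SPA1. Over all genes these settings called 445 and 476, in place of 404. For the interaction at 2 h, no filter on low counts left 1 call in place of 2, with COP1 lost (over all genes, 340 in place of 360). For the genotypes at 27 °C, total counts without TMM called 2 genes in place of 1, adding SPA3 as lower in the mutant (adjusted p = 0.0299). Leaving out both heat libraries numbered 1, an alternative chosen after seeing the data, called 0. Over all genes these 2 settings called 4096 and 3026, in place of 3784. With the replicate number as a block, 1 gene was called for the interaction at 2 h (COP1 lost, adjusted p = 0.0648). This block gave 2 calls for the genotypes at 27 °C (COP10 added, log2 0.28, adjusted p = 0.0426) and 0 for the genotypes at 4 h. The other counts stayed within 1.5 times. Over all genes the block gave 290 calls in place of 360 for the interaction at 2 h, and 4187 in place of 3784 at 27 °C.

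Leaving out 1 library gave 9 to 9 calls for 2 h of light in the wild type and 9 to 10 in the mutant, 8 to 9 at 4 h in both genotypes, and 4 to 5 (wild type) and 6 to 8 (mutant) between 2 and 4 h. For the genotypes it gave 2 to 4 calls in darkness, 1 to 2 at 2 h, 0 to 0 at 4 h, 0 to 0 at 12 °C and 0 to 1 at 27 °C. It gave 1 to 2 for the interaction at 2 h and 0 to 0 at 4 h and in heat, and 4 to 5 (wild type) and 3 to 6 (mutant) for the heat response. Calls over all genes also moved, to between 2646 and 3399 for the genotypes in darkness (3774 with all libraries). For the heat interaction they were between 42 and 354 (198 with all libraries). Among the uncalled log2 values of the 10 genes given above, the sign turned for 3. RUP2 in darkness ranged from -0.0015 to 0.50 (lowest without dark wild-type replicate 2). RUP1 between 2 and 4 h in the wild type ranged from -0.18 to 0.052 (highest without 4 h replicate 1). RUP2 in the heat interaction ranged from -0.0060 to 0.38 (lowest without cold mutant replicate 1). Other uncalled values also changed sign, such as COP1 (-0.043 to 0.054) and SPA1 (-0.011 to 0.016) between the genotypes at 4 h of light. The causes were not tested. RUP2 in darkness and at 12 or 27 °C is limited by its low counts.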
